A study of Mus musculus with 18 samples.

Results

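The genes of cholesterol synthesis, its regulation and cholesterol export were examined in M1 (primary motor cortex) astrocytes of C57BL/6 mice at 3 stages of learning a motor skill. The set holds 29 genes, named one by one from the enzymes of the mevalonate and sterol pathways, the SREBP2 control system, apolipoprotein E and the genes of cholesterol export and storage. All 29 are among the 23924 genes of the deposited table, and 28 were tested because they had 1 FPKM or more in 6 or more of the 18 libraries. FPKM counts fragments relative to transcript length and to the mapped fragments of the library. Hmgcs1, the gene left out by this filter, was listed at 0 in every library.

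All mice were wild type and, per the series' design, water restricted before they were trained on a cued lever task with water as the reward. The naive group was untrained and 12 to 21 weeks old, the novice group had 3 days of training and was 11 to 13 weeks old, and the expert group was fully trained and 13 to 15 weeks old. Each group had 6 libraries of total RNA, 2 labelled female and 4 labelled male. The labels do not say that each library came from its own animal, so p-values measure the spread between these libraries, which may in part be technical.

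Cholesterol in the brain is made locally, because the lipoproteins of blood do not cross the blood-brain barrier, and in the adult brain astrocytes are regarded as a main producer. Acetyl-CoA is turned through mevalonate into farnesyl pyrophosphate and squalene, which is closed into a ring and trimmed to cholesterol. When sterols are scarce, SCAP escorts SREBP2 out of the endoplasmic reticulum and the released factor switches on the enzymes of the pathway, whereas INSIG proteins hold SCAP back when sterols are plentiful. Astrocytes load cholesterol onto apolipoprotein E through ABCA1 and ABCG1, and neurons take the particles up through receptors such as LRP1.

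Astrocyte transcripts were abundant in every library. The summed level of 22 astrocyte markers ranged from 2502 to 9200 FPKM in naive, from 2501 to 6148 FPKM in novice and from 3296 to 12302 FPKM in expert libraries, and 0 of the 22 were listed at 0 throughout a group. Transcripts of other cells were present, with 15 neuronal markers summing to 205 to 1797 FPKM and 13 endothelial markers to 215 to 877 FPKM over all libraries. Read totals are unknown, since the table holds FPKM alone, and Bc1, a short neuronal RNA, took 6.01% to 59.6% of a library's summed FPKM. The mean level of 1586 genes with little or no expression in brain (called silent genes here, olfactory, vomeronasal and taste receptors, trace amine receptors, defensins and keratin-associated proteins) split the libraries at a gap. It lay at 0.301 to 3.31 FPKM in 10 libraries, 4 naive, 2 novice and 4 expert, and at 4.65 to 6.70 FPKM in 8 libraries, 2 naive, 4 novice and 2 expert. Expert 3 stood apart with the lowest silent-gene mean. In 16 libraries the levels of Xist and of the Y-linked gene Ddx3y went with the labelled sex, and in novice 1, labelled female, and novice 3, labelled male, they went against it.

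At the level of single genes, Apoe, which encodes the main apolipoprotein of the brain, dominated the set. It had a median of 3615 FPKM over the 18 libraries and ranked between 10 and 65 among all genes of a library. The next genes were far lower. Lrp1, an endocytic receptor for apolipoprotein E, had a median of 42.6 FPKM, the farnesyl pyrophosphate synthase gene Fdps had 36.6 FPKM and Insig1, a sterol-sensing brake on SREBP2, had 35.1 FPKM. The isomerase gene Idi1 followed at 27.3 FPKM, Lcat, which esterifies cholesterol on lipoproteins, at 23.5 FPKM and the squalene synthase gene Fdft1 at 23.2 FPKM. Srebf2, the gene of SREBP2, stood at 21.0 FPKM, the lysosomal transporter gene Npc1 at 20.4 FPKM, the cholesterol-esterifying enzyme gene Soat1 at 18.5 FPKM and Abca1 at 15.4 FPKM. Mvk, which encodes mevalonate kinase, had a median of 6.82 FPKM and Stard4, which encodes a cholesterol carrier of the cytosol, had 5.23 FPKM. At the low end, the thiolase gene Acat2 and the exporter gene Abcg1 had medians of 3.86 and 3.85 FPKM. Below Apoe, neighbours in this order overlapped widely over the libraries. Soat1 varied least, with a coefficient of variation of 20.6% over the 18 libraries, and Acat2 most, with 60.7%.

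Hmgcs1 encodes the synthase that forms HMG-CoA, an early intermediate of the mevalonate pathway. In the gene order of GRCm38, the table lists at 0 in all 18 libraries not only Hmgcs1 but a run of 10 neighbouring genes that ends with the last table gene of chromosome 13 (Ccl28, 1700074H08Rik, Hmgcs1, Nim1k, Zfp131, AF067063, Tcstv1, B020031M17Rik, BC147527 and Tcstv3). The gene just before the run, Gm7120, had a median of 18.3 FPKM. The table lists 676 genes at 0 throughout, and an exact 0 can be a failed estimate, so no statement on the expression of Hmgcs1 is made.

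Promoter windows of 300 bases, 250 before and 50 after the start of a gene, were matched in RefSeq (GRCm38.p6) for 23 of the 29 genes. The other 6 genes were Sqle, Fdft1, Fdps, Abcg1, Npc1 and Stard4, and they entered no motif count. The windows were searched on both strands for TCACNCCAC, a core of the sterol regulatory element that SREBP binds. They were also searched for CCAAT, the box bound by NF-Y, a factor known to act beside SREBP. The sterol core was found in 1 of the 23 windows (4.35%), that of Hmgcs1, against 1.44% of 27025 genes. The CCAAT box was found in 18 of the 23 (78.3%), against 41.1% of all genes. The stretches around these letters are shown for Cyp51, Dhcr7 and Insig1, the genes with a matched window, a box in it and an unadjusted p under 0.05 in expert against novice libraries, and for Hmgcs1, which has both. A further CCAAT box of Hmgcs1 lies after the start of the gene and outside the stretch shown. Capitals mark CCAAT, its reverse complement ATTGG and the sterol core, each stretch reads 5′ to 3′ on the strand of its gene, and a match is no evidence of binding. Cyp51 lies on the minus strand (chr5:4104698-4104756) and Dhcr7 (chr7:143830099-143830199), Insig1 (chr5:28071166-28071230) and Hmgcs1 (chr13:119690101-119690340) on the plus strand.
Cyp51: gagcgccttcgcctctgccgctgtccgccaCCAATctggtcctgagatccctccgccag
Dhcr7: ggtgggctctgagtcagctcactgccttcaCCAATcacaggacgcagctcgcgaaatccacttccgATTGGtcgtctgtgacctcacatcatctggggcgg
Insig1: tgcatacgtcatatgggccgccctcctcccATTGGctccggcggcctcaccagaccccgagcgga
Hmgcs1: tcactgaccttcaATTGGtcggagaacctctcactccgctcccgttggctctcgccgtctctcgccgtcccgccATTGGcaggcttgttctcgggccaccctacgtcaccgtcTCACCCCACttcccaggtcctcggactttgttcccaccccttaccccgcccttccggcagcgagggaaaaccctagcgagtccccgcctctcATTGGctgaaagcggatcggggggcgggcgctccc
The windows of Abca1 and Lrp1 held neither set of letters, which says nothing on what binds there.

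Between the 3 stages, no gene of the set passed the threshold of limma (adjusted p under 0.05 over 21745 genes), and neither did any other gene. The share of all genes called was 0.0% in novice against naive, 0.0% in expert against naive, 0.0% in expert against novice and 0.0% in the F test for any difference. Without adjustment, 3 of the 28 genes had a p under 0.05 in the F test, namely Sqle, Fdft1 and Dhcr7, against 5.53% of all genes. All 3 are enzymes of the sterol branch. The following values are therefore differences between group levels that did not pass the test.

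Most cholesterol genes stood lower in novice than in naive libraries, and the sterol enzymes Sqle and Fdft1 differed most. Of the 28 genes, 24 had a log2 fold change below 0 in novice against naive, where 43.0% of all genes did. The median was -0.29, beside 0.07 over all genes and -0.08 over the 8979 genes with a mean of 5 to 50 FPKM. In that range of abundance 22 of 25 cholesterol genes and 60.1% of all genes were below 0. A p under 0.05 without adjustment was reached by 2 of the 28, both lower, where 1.88% of all genes were lower at that level. With a filter of 5 FPKM in 6 or more libraries, 358 of 11141 genes were lower at that level. The count of the set was 1 without naive 2, naive 3 or naive 4, 4 without naive 5 and 5 without naive 6. It was 3 without expert 3, which enters the shared estimate of the spread.

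Squalene epoxidase, the product of Sqle, catalyses the first oxygen-requiring step of sterol synthesis. Sqle ranged from 5.52 to 13.3 FPKM in novice libraries with a median of 7.74 FPKM, against 11.1 to 23.5 FPKM with a median of 15.5 FPKM in naive libraries. Novice 2 was the only novice library above the lowest naive values, so the groups overlapped narrowly. The log2 fold change was -0.93 (SE 0.29, adjusted p = 0.89 by limma). Fdft1, which joins a pair of farnesyl groups into squalene, ranged from 9.48 to 22.1 FPKM in novice libraries with a median of 18.1 FPKM, against 15.3 to 39.8 FPKM with a median of 29.98 FPKM in naive libraries. The overlap came from naive 5 and naive 6, both with a silent-gene mean above 4 FPKM, while naive 1 to naive 4 lay above every novice library. Its log2 fold change was -0.70 (SE 0.30, adjusted p = 0.89). For no gene of the set did all novice libraries lie below all naive ones, as they did for 0.0644% of all genes.

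By role, the sterol enzymes had the lowest median fold change in novice against naive at -0.52, with 8 of 9 below 0. Tm7sf2, a sterol reductase, stood at -0.61 (SE 0.37), Dhcr7, which catalyses a last step to cholesterol, at -0.55 (SE 0.27) and the demethylating enzyme gene Nsdhl at -0.52 (SE 0.35). Cyp51, the lanosterol demethylase, stood at -0.42 (SE 0.26). Lss, which closes the ring, stood at 0.00 (SE 0.21). The mevalonate enzymes had a median of -0.20, with 5 of 6 below 0, and ranged from -0.56 for the decarboxylase gene Mvd to 0.06 for Idi1, with Mvk at -0.32 (SE 0.35). Among the regulators 3 of 4 were below 0 (median -0.17), with Insig1 at -0.46 (SE 0.34), Srebf2 at -0.22 (SE 0.30) and the escort gene Scap at -0.12 (SE 0.20), and Insig2 stood at 0.26 (SE 0.26). Among the genes of export and handling 8 of 9 were below 0 (median -0.28), from -0.49 for Lrp1 to 0.04 for Abcg1, with Stard4 at -0.28 (SE 0.22).

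**Figure D1:**
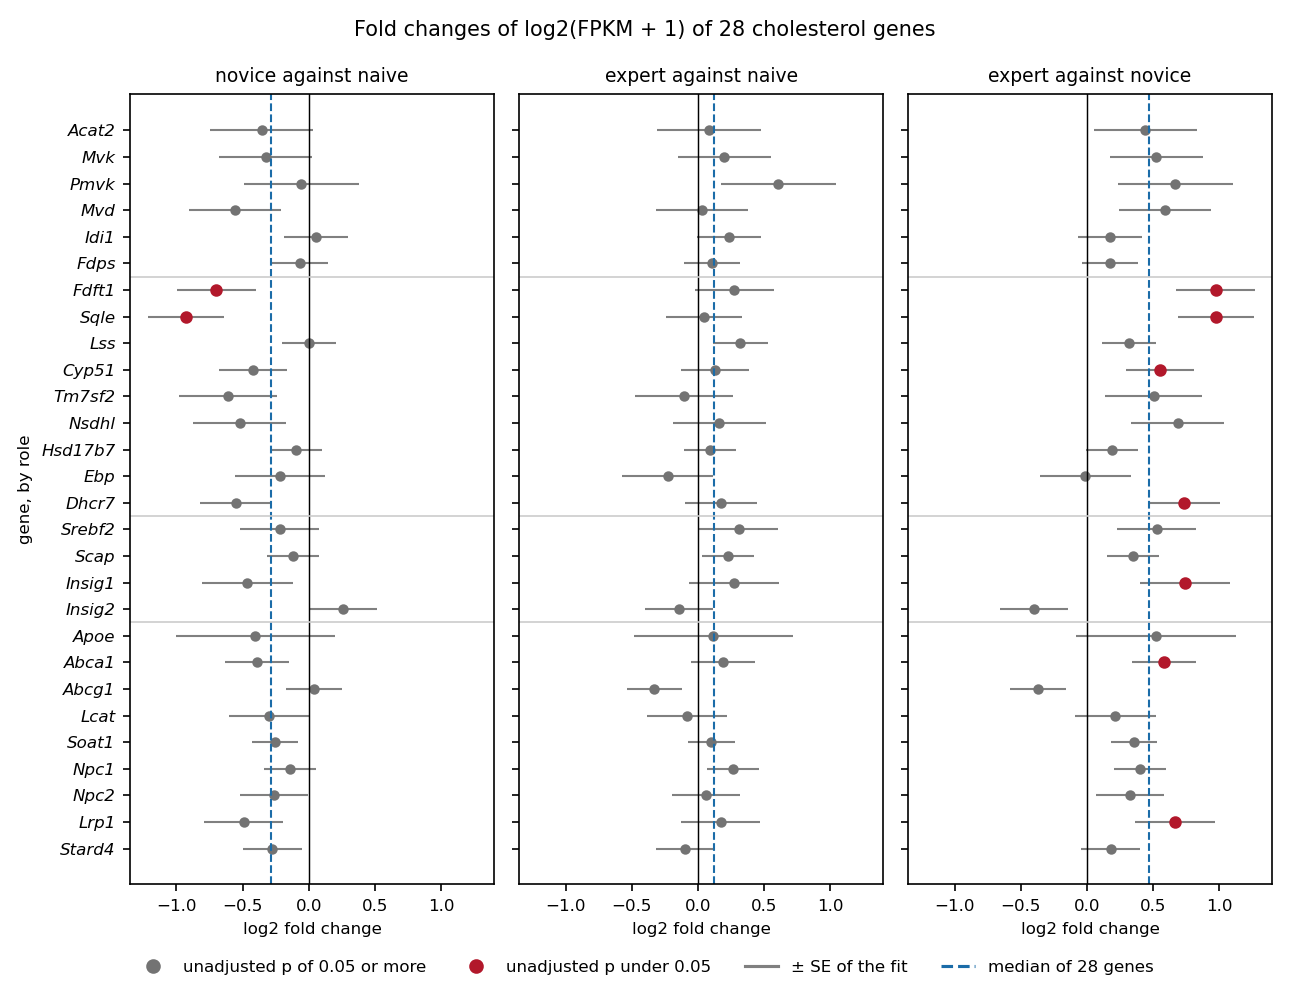
Log2 fold change of log2(FPKM + 1) on the horizontal axis for the 28 tested genes, ordered by role from the mevalonate enzymes at the top to export and handling at the bottom, in the 3 comparisons. Points are estimates, bars the standard error of the fit, red points have an unadjusted p under 0.05, and the dashed line is the median of the genes at -0.29, 0.12 and 0.47.

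Most cholesterol genes stood higher in expert than in novice libraries, with Sqle and Fdft1 again at the top. Of the 28 genes, 25 had a log2 fold change above 0, where 40.4% of all genes did. The median was 0.47, beside -0.14 over all genes and 0.14 over genes with a mean of 5 to 50 FPKM, of which 62.2% were above 0. The 3 genes below 0 were Insig2 at -0.40 (SE 0.26), Abcg1 at -0.37 (SE 0.21) and the sterol isomerase gene Ebp at -0.01 (SE 0.34). A p under 0.05 without adjustment was reached by 7 of the 28, all higher, where 4.88% of all genes were higher at that level. With a filter of 5 FPKM in 6 or more libraries, 1048 of 11141 genes were higher at that level. Leaving out single libraries moved the count of the set between 3 and 12. It was 3 without expert 3 or without novice 5, 4 without expert 2 or without expert 6, and 12 without expert 4. This comparison and that of novice with naive share the novice libraries, so their opposite signs are not independent.

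Sqle ranged from 10.1 to 37.1 FPKM in expert libraries with a median of 15.0 FPKM, against 5.52 to 13.3 FPKM with a median of 7.74 FPKM in novice libraries, and its log2 fold change was 0.98 (SE 0.29, adjusted p = 0.45 by limma). The overlap was again through novice 2. Fdft1 ranged from 22.9 to 67.8 FPKM in expert libraries with a median of 29.3 FPKM, against 9.48 to 22.1 FPKM with a median of 18.1 FPKM in novice libraries, and its log2 fold change was 0.97 (SE 0.30, adjusted p = 0.45). Every expert library lay above every novice one. Fdft1 was the 1 gene of 28 with such a gap, which 0.253% of all genes showed in this direction. Dhcr7 ranged from 6.20 to 26.8 FPKM in expert libraries with a median of 8.15 FPKM, against 4.06 to 7.90 FPKM with a median of 5.72 FPKM in novice libraries. The groups overlapped, and expert 3, at 26.8 FPKM, lay above the next expert library, at 13.1 FPKM. Its log2 fold change was 0.73 (SE 0.27, adjusted p = 0.45), and 0.47 without expert 3.

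Cyp51 ranged from 10.2 to 29.98 FPKM in expert libraries with a median of 14.2 FPKM, against 6.77 to 15.2 FPKM with a median of 11.3 FPKM in novice libraries. Most of these values overlapped, and the log2 fold change was 0.55 (SE 0.26, adjusted p = 0.45). In the sterol branch 8 of 9 genes were above 0, with a median of 0.55. Nsdhl stood at 0.69 (SE 0.35), Tm7sf2 at 0.50 (SE 0.37), Lss at 0.32 (SE 0.21) and the ketoreductase gene Hsd17b7 at 0.19 (SE 0.20). All 6 mevalonate enzymes were above 0 (median 0.48), from 0.17 for Fdps to 0.67 for the kinase gene Pmvk, with Mvk at 0.52 (SE 0.35), and 0 of the 6 had a p under 0.05.

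Insig1, itself a target of SREBP2, ranged from 24.4 to 87.3 FPKM in expert libraries with a median of 38.8 FPKM, against 16.3 to 37.6 FPKM with a median of 24.4 FPKM in novice libraries. Its log2 fold change was 0.74 (SE 0.34, adjusted p = 0.45), and 0.52 without expert 3. Srebf2 ranged from 15.2 to 40.2 FPKM in expert libraries with a median of 24.5 FPKM, against 10.8 to 23.3 FPKM with a median of 15.0 FPKM in novice libraries, at a log2 fold change of 0.53 (SE 0.30). Both genes overlapped between the groups. In Srebf2 the 8 libraries with a silent-gene mean above 4 FPKM had a median of 14.4 FPKM and the other 10 libraries 24.6 FPKM.

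Among the genes of export and handling 8 of 9 were above 0 in expert against novice, with a median of 0.36. Abca1, which hands cholesterol to lipid-poor apolipoproteins, ranged from 13.3 to 34.1 FPKM in expert libraries with a median of 20.01 FPKM, against 9.37 to 17.4 FPKM with a median of 13.4 FPKM in novice libraries. Lrp1 ranged from 31.0 to 88.1 FPKM in expert libraries with a median of 50.9 FPKM, against 21.3 to 44.5 FPKM with a median of 28.6 FPKM in novice libraries. Both overlapped between the groups, with log2 fold changes of 0.59 (SE 0.24) and 0.67 (SE 0.30, adjusted p = 0.45 for each). Apoe ranged from 2133 to 7804 FPKM in expert libraries with a median of 4061 FPKM, against 1997 to 4473 FPKM with a median of 2395 FPKM in novice libraries. It overlapped widely, and its fold change of 0.52 had an SE of 0.60. The standard error of the fit, which draws on genes of like level and not on Apoe alone, was thus larger than the fold change of Apoe. Npc1 stood at 0.40 (SE 0.20) and Npc2, which works with it in moving cholesterol out of lysosomes, at 0.33 (SE 0.26). Soat1 stood at 0.36 (SE 0.18) and Stard4 at 0.18 (SE 0.22).

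**Figure D2:**
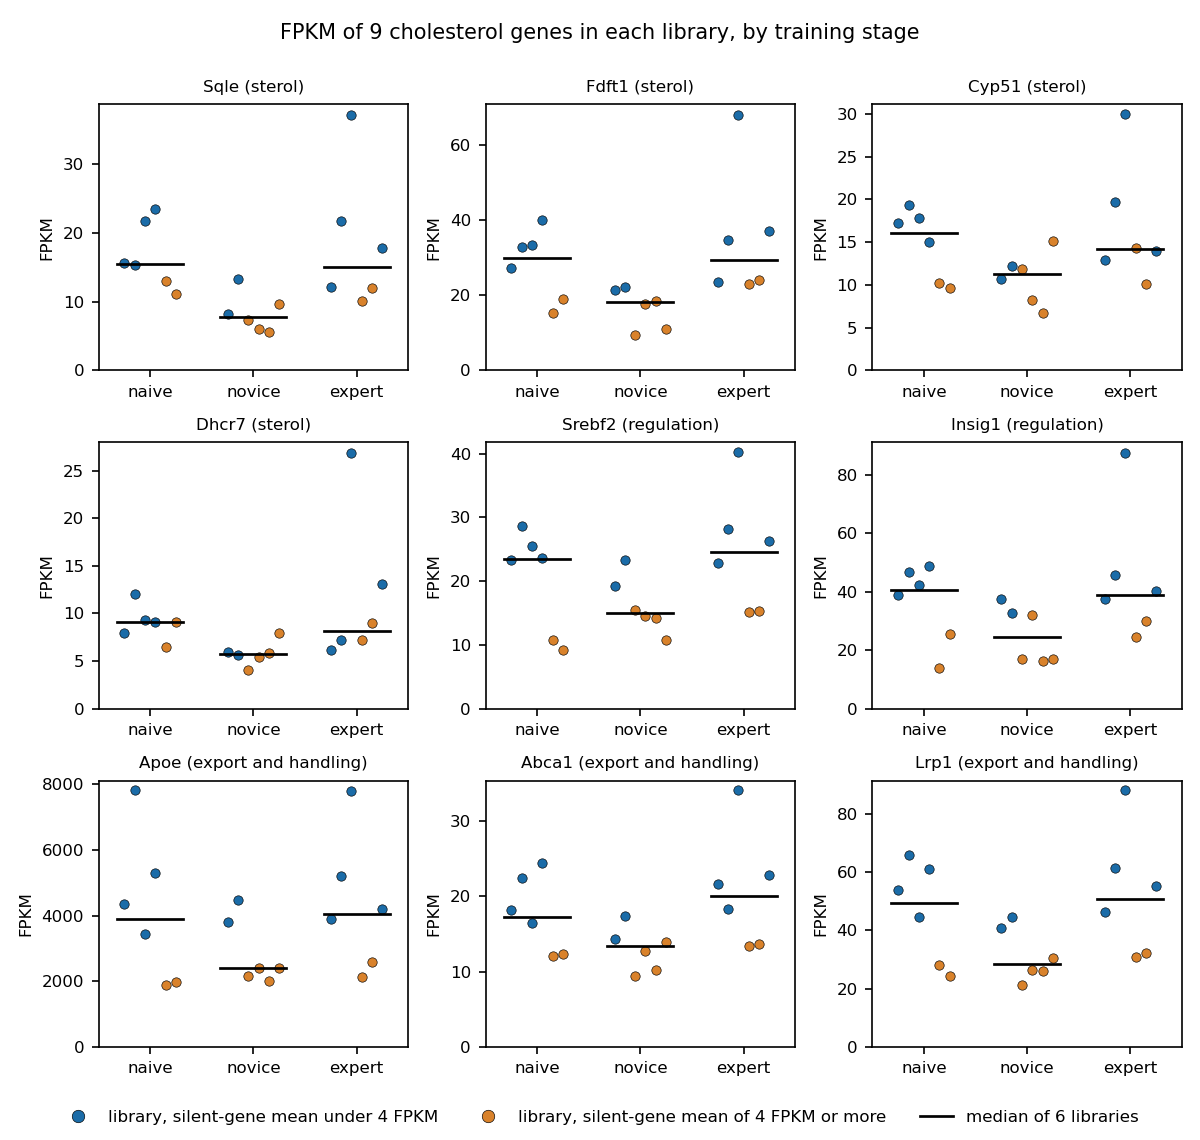
FPKM on the vertical axis of 9 genes in each library at the naive, novice and expert stage. Dots are libraries, coloured by the silent-gene mean, and bars are medians of 6 libraries. For Fdft1 the 6 expert libraries, at 22.9 to 67.8 FPKM, lie above the 6 novice libraries, at 9.48 to 22.1 FPKM. For Srebf2, Insig1, Apoe, Abca1 and Lrp1 every library of the higher silent-gene class lies below every library of the lower one. The share of all genes with such a separation was not counted.

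In expert against naive libraries the fold changes of these genes lay closer to 0. The median log2 fold change of expert against naive was 0.12, beside -0.05 over all genes, and 22 of 28 genes were above 0, where 43.9% of all genes were. Unadjusted p-values under 0.05 were reached by 0 of the 28 genes, against 2.86% of all genes, and the smallest adjusted p of the set was 0.9996 by limma. The fold changes ran from -0.33 (SE 0.21) for Abcg1 to 0.61 (SE 0.44) for Pmvk. Sqle stood at 0.05 (SE 0.29), with 10.1 to 37.1 FPKM in expert libraries against 11.1 to 23.5 FPKM in naive libraries, and Fdft1 at 0.28 (SE 0.30). Apoe, at a fold change of 0.12 (SE 0.60), had 2133 to 7804 FPKM in expert libraries against 1869 to 7813 FPKM in naive libraries. Srebf2 stood at 0.31 (SE 0.30) and Abca1 at 0.19 (SE 0.24). Without expert 3, 14 of 28 genes were above 0 and the median was -0.01. Without naive 6, 15 of 28 were above 0 and the median was 0.02.

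Averaged over the 28 genes, log2(FPKM + 1) was 3.98 ± 0.35 (naive), 3.68 ± 0.12 (novice) and 4.09 ± 0.41 (expert), with the SD over 6 libraries each. The novice libraries lay closest together, between 3.49 and 3.81, inside the naive range of 3.47 to 4.38 and, but for novice 5, the expert range of 3.59 to 4.80. The sterol enzymes were the role in which novice libraries stood most apart. Their mean was 2.82 to 2.88 in 5 novice libraries and 3.21 in novice 6, against 2.998 to 3.69 in naive libraries. Of the 28 genes, 18 had their highest value in expert 3. The lowest value lay in a naive library for 13 genes, in a novice library for 12 and in an expert library for 3. Naive 6 held 6 of them, novice 3 and novice 5 held 5 each, and naive 5 and expert 4 held 3 each.

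**Figure D3:**
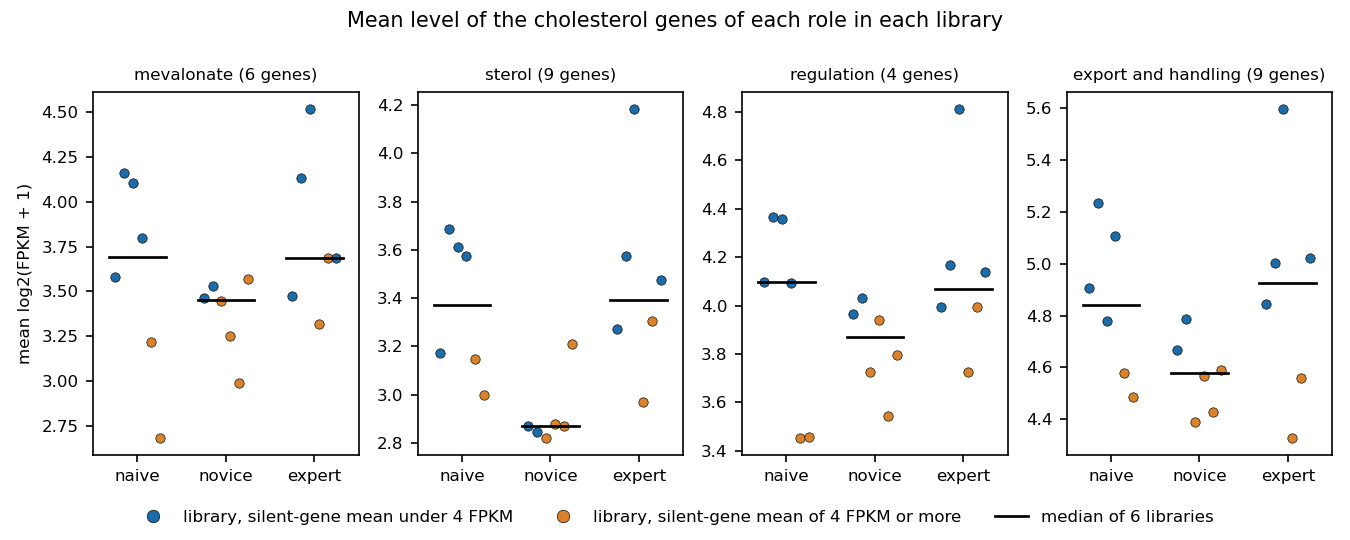
Mean log2(FPKM + 1) of the genes of each role on the vertical axis, in each library at the naive, novice and expert stage, with dots coloured by the silent-gene mean and bars at the median of 6 libraries. For the 9 sterol enzymes 5 of the 6 novice libraries lie between 2.82 and 2.88, under all naive and expert libraries.

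**Figure D4:**
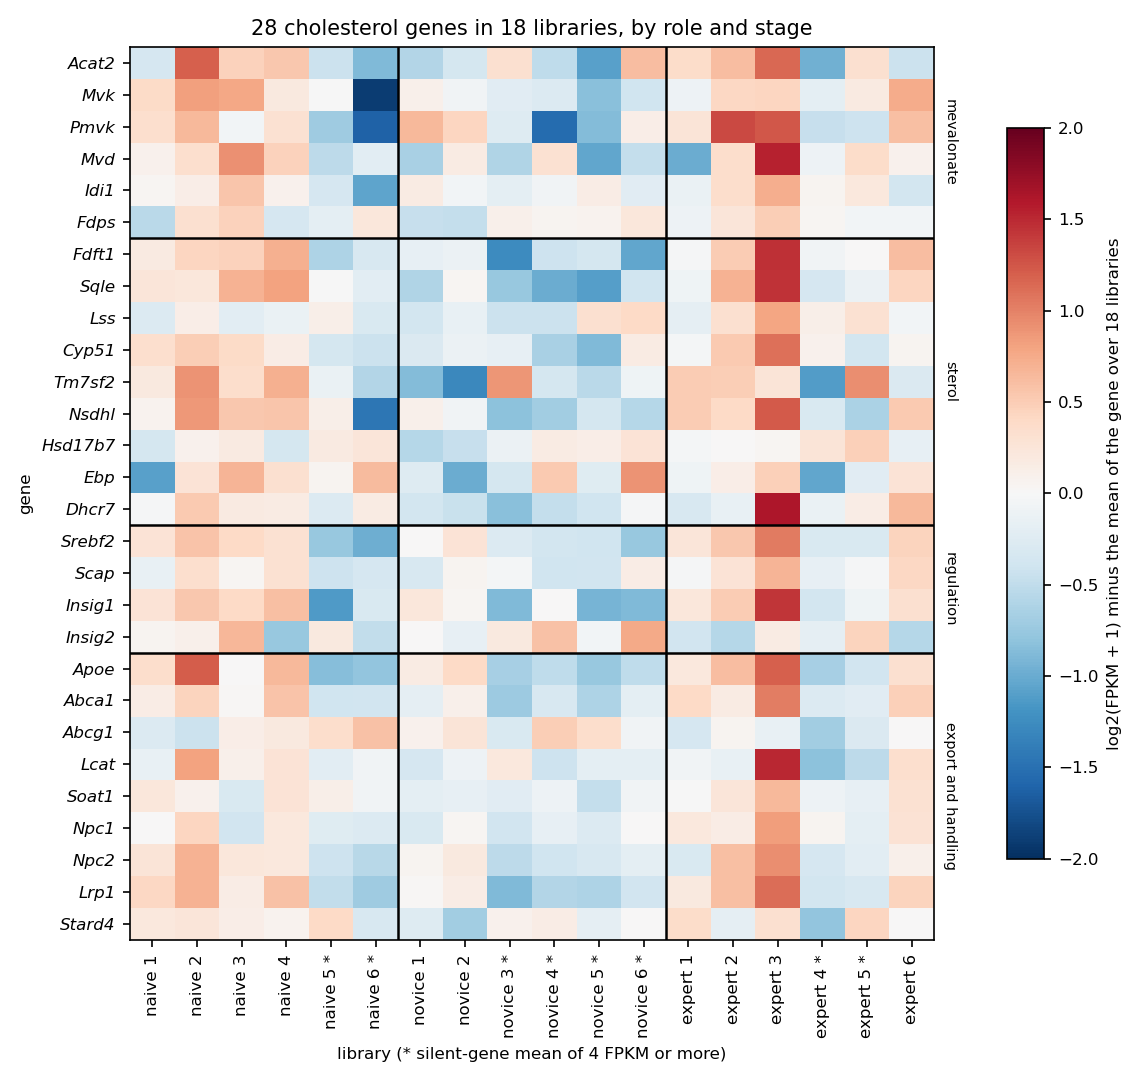
Level of each of the 28 tested genes (rows, by role) in each of the 18 libraries (columns, by stage), as log2(FPKM + 1) minus the mean of that gene over all libraries, with red above and blue below the mean. Expert 3 is red in most rows, and it holds the highest value of 18 of the 28 genes. The columns marked with a star are the 8 libraries with a silent-gene mean of 4 FPKM or more.

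The levels of these genes moved with the silent-gene mean of the libraries. In 23 of the 28 genes (82.1%) the median of the 8 libraries above 4 FPKM was lower than that of the other 10 libraries, against 35.3% of all tested genes. The silent genes, whose mean defines the classes, were not taken out of that 35.3%. The share among genes of like abundance was not counted, so the size of the contrast is not known. Lrp1 had a median of 27.3 FPKM above 4 FPKM and 54.6 FPKM under it. Apoe had 2141 FPKM above and 4410 FPKM under it, and Fdft1 had 18.1 FPKM above and 33.0 FPKM under it. The 10 libraries under 4 FPKM were also fitted alone, a split chosen after seeing the data. The median fold change of the set was -0.40 in novice against naive and 0.50 in expert against novice. All 9 sterol enzymes were below 0 in novice against naive, where 11010 of 21745 genes were. All 9 were above 0 in expert against novice, where 12012 of 21745 genes were below 0. Only 2 novice libraries entered there. Within the 8 libraries above 4 FPKM, the medians were 0.05 in novice against naive and 0.14 in expert against novice. Only 2 naive and 2 expert libraries entered that class, and its count of sterol enzymes by direction is not reported here. Sqle had the same sign in both classes, at -0.78 (under 4 FPKM) and -0.71 (above) in novice against naive, and at 0.91 and 0.59 in expert against novice. Fdft1 stood at -0.58 and -0.30 in novice against naive, and at 0.78 and 0.74 in expert against novice. With the silent-gene mean as a covariate, the medians of the set were -0.16 in novice against naive, -0.03 in expert against naive and 0.17 in expert against novice, and Sqle stood at -0.73 in novice against naive and at 0.53 in expert against novice.

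The astrocyte markers lay in the same directions as the cholesterol genes. All 22 stood lower in novice than in naive libraries (median log2 fold change -0.59), and all 22 stood higher in expert than in naive libraries (0.19) and higher in expert than in novice libraries (0.77). Their summed level had a median of 5966 FPKM in naive, 2879 FPKM in novice and 6017 FPKM in expert libraries. In bulk RNA, fewer astrocytes and less of these transcripts per astrocyte cannot be told apart. The markers also went with the silent-gene classes. Their mean log2(FPKM + 1) was 6.03 to 6.55 in the 8 libraries above 4 FPKM and 6.87 to 8.25 in the other 10. The marker mean and the silent-gene classes thus carry much the same contrast and cannot be told apart here either. With the mean of the markers as a covariate, chosen after seeing the data, the median of the cholesterol genes was -0.01 in novice against naive. There 14 of 28 were below 0, as were 12353 of all 21745 genes, whose median was -0.05. In expert against novice the median of the set was 0.07, with 17 of 28 above 0. Over all genes it was 0.06, with 9255 of 21745 below 0. The medians of the set thus lay near those of all genes. The sterol enzymes then had medians of -0.27 in novice against naive and 0.36 in expert against novice, closer to 0 than the -0.52 and 0.55 without the covariate, while the mevalonate enzymes had 0.04 and -0.04, and Sqle stood at -0.56 and 0.47. Endothelial markers were higher in expert than in naive libraries for 13 of 13 (median 0.63), where 43.9% of all genes were, and 9 of them had an unadjusted p under 0.05, where 1.43% of all genes were higher at that level. Their sums were 326 to 877 FPKM in expert and 294 to 420 FPKM in naive libraries. The part of these other cells in the fold changes of the cholesterol genes was not tested.

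**Figure D5:**
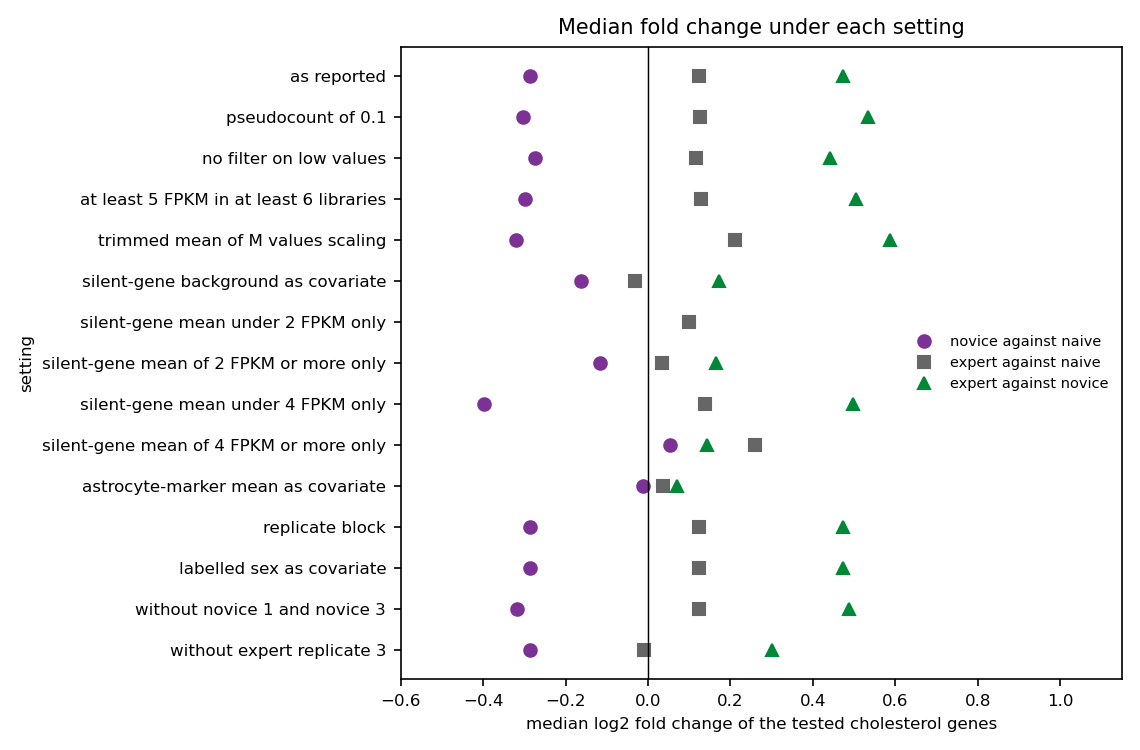
Median log2 fold change of the tested cholesterol genes on the horizontal axis, under each setting on the vertical axis, for the 3 comparisons, where the top row is the value as reported. The median of expert against novice lies at 0.47 as reported and at 0.07 with the astrocyte-marker mean as covariate. That of novice against naive lies at -0.29 as reported and at 0.05 in the libraries with a silent-gene mean of 4 FPKM or more.

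The 32 other genes of the pathway, all of which were tested, included steps that the set leaves out. In novice against naive 20 of 32 were below 0 with a median of -0.13, where 43.0% of all genes were below 0. Among genes with a mean of 5 to 50 FPKM 60.1% were, a share close to that of the 32. In expert against novice 21 of 32 were above 0 with a median of 0.23, where 40.4% of all genes were above 0. Among genes with a mean of 5 to 50 FPKM 62.2% were, again close to the share of the 32. At an unadjusted p under 0.05, 4.88% of all genes were higher in expert than in novice libraries. With a filter of 5 FPKM in 6 or more libraries, 1048 of 11141 genes were. Of the 32, 9 were higher at that level and 0 lower. They included the sterol enzyme gene Msmo1 at 0.87 (SE 0.35), the lipoprotein receptor genes Lrp8 at 0.45 (SE 0.19) and Scarb1 at 0.51 (SE 0.19), Srebf1, a relative of Srebf2, at 0.66 (SE 0.29), Mbtps1, the protease that cuts SREBP first, at 0.45 (SE 0.21), and the oxysterol-binding protein gene Osbp at 0.45 (SE 0.17). None passed the adjusted threshold (adjusted p = 0.45 for each by limma). Msmo1 ranged from 43.6 to 175 FPKM in expert libraries, against 24.3 to 66.9 FPKM in novice libraries, and the groups overlapped. In novice against naive the 1 gene with an unadjusted p under 0.05 was Mbtps2, the second protease of SREBP, which stood higher at 0.53 (SE 0.23), as 2.72% of all genes did at that level. The 13 other genes of export, turnover and transport showed no common direction, with 7 below and 6 above 0 in expert against novice.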

How the data were processed

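Astrocyte RNA from M1 was profiled in 18 libraries, 6 each from naive, novice and expert mice, grouped by their titles. Per the labels' protocols, cells were digested with proteinase K, RNA was cleaned on a silica column, and stranded total RNA libraries were sequenced on an Illumina HiSeq. Per the submitters' processing notes the authors used TopHat and Cufflinks with mouse build mm9, in versions and with an annotation not stated there. The deposited values, titled normalized counts, are not whole numbers and were read as FPKM, the unit of Cufflinks. Of 23951 entries, 27 whose names had become dates were left out. Read totals are unknown, so no counting interval is given.

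The log2(FPKM + 1) of genes reaching 1 FPKM in 6 or more libraries was fitted in limma 3.58.1 (R 4.3.3, lmFit, eBayes with trend), with 1 mean per group, two-sided tests, an F test for any difference and Benjamini-Hochberg adjustment over 21745 genes at 0.05. A fold change is on this scale, which understates changes of low genes. The fit was tested on simulated data with changes larger than any of the set and no silent-gene classes. Its power for changes of the size seen here was not tested. Alternatives were a pseudocount of 0.1, no filter, a filter of 5 FPKM, trimmed mean of M values scaling, silent-gene, astrocyte-marker and labelled-sex covariates, silent-gene classes split at 2 and 4 FPKM, a replicate block, and leaving out libraries.

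The genes of the set and all gene lists were chosen with earlier results of these data known. Every gene of the set is accounted for. Values by library are given for those with an unadjusted p under 0.05 in a comparison and for Hmgcs1, Sqle, Fdft1, Cyp51, Srebf2, Insig1, Apoe, Abca1 and Lrp1. Other pathway genes are named where that p was under 0.05, except for some that are not reported here.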

Additional observations from a re-analysis of the deposited data

Results flagged for a closer look

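In 5 of 84 groups of 6 libraries (28 genes in 3 stages), 1 library stood further from its nearest neighbour than Dixon's critical value allows. Chance gives about 4.2 (1 in 20) for independent values with a normal distribution. These were FPKM without a log transform, and all genes share the same libraries, so 4.2 is a rough guide only. In all 5 groups that library was expert 3. There Mvd had 18.5 FPKM, Fdft1 67.8 FPKM, Dhcr7 26.8 FPKM, Insig1 87.3 FPKM and Lcat 74.3 FPKM. Expert 3 also had the lowest silent-gene mean, 0.301 FPKM, and the most genes listed at 0, 5430.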

How the results depend on the processing

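No gene of the set was called under any of the 31 settings tried. In libraries with a silent-gene mean of 4 FPKM or more (chosen after seeing the data), 3 genes were called in novice against naive, 4 in expert against naive, 5 in expert against novice and 6 in the F test, all short RNAs such as Mir568 and Snora28, named after their values were seen. Under 2 FPKM, 4 were called in expert against naive, also short RNAs. No novice library lay there, so its comparisons could not be made. Above 4 FPKM, 12 of 28 genes of the set were below 0 in novice against naive, where 11386 of 21745 genes were. The median of the set was 0.052 there, and 0.14 in expert against novice. With the astrocyte-marker mean as covariate, also chosen after seeing the data, 14 of 28 were below 0 in novice against naive. The median of expert against novice was 0.069. Over all genes, 12353 of 21745 were then below 0 in novice against naive, and the median of expert against novice was 0.064. In expert against naive, 11 of 28 were above 0 with the silent-gene covariate and 14 without expert 3. The cause of these shifts was not tested.

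Leaving out 1 library at a time gave 23 to 26 genes below 0 and medians of -0.40 to -0.18 in novice against naive, 14 to 25 above 0 and -0.01 to 0.26 in expert against naive, and 24 to 26 above 0 and 0.30 to 0.60 in expert against novice, with 0 calls each time. An unadjusted p under 0.05 in expert against novice was reached by 7 of the 28 genes as reported, and the count over the 28, which need not be the same genes, was 2 without novice 1 and novice 3, 2 with the silent-gene covariate, 3 with the astrocyte-marker covariate and 9 with trimmed mean of M values scaling.

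With a replicate block the medians were -0.29, 0.12 and 0.47, with 0 calls and 8 genes of the set at an unadjusted p under 0.05 in expert against novice. Over all genes in expert against novice, 2963 had an unadjusted p under 0.05 with the block and 2360 without it. The smallest adjusted p by limma was 0.087 with the block and 0.449 without it. Same-numbered libraries correlated at -0.36 to 0.46, above 0.1 in 10 of 18 pairs, and 2 correlated best with their own number. These are deviations from group means, which also hold the silent-gene classes, so they do not decide whether the numbers pair the libraries. Depth limits apply throughout, since read totals are unknown.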
